A study of Homo sapiens with 24 samples.

Results

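The Notch pathway genes described here are 36 human genes: those of a list of 37 that held at least 10 counts summed over 24 libraries, out of 28278 genes in the count table. The list holds 5 ligands, 4 receptors, 8 genes of the HES and HEY families, 6 genes of the nuclear complex and its feedback, 4 glycosyltransferases, 4 proteases and 6 Deltex and Numb genes. Just outside the limit lay HES5, with 3 counts in all, and just inside it HEY2, with 46. A filter on low counts left 34 members among 15642 tested genes, and NOTCH4 and HEY2 did not pass it.

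RNA was sequenced from TYUC-1, an established human cell line of a neuroendocrine esophageal carcinoma that grows in suspension. One engineered line expressed TAp63 under doxycycline at 1 µg/ml and another expressed ΔNp63, the forms of the squamous transcription factor p63 with and without the N-terminal transactivation domain. In either line, cells were given doxycycline for 0, 1, 3 or 6 days and the vehicle DMSO for the remainder of a 6 day course, so that the day 0 cells had DMSO throughout. There were 3 libraries for each of the 8 groups, and cells given doxycycline but carrying no p63 construct are not analysed here. All groups share the parental line, the medium with serum and the course length, and the labels do not say whether a line is 1 clone. The replicates are called biological, with no word on separate cultures, so the p-values reflect only how far these libraries varied, which may be technical. A treatment label also names EPZ-6438, which blocks the chromatin enzyme EZH2, over the same number of days as doxycycline. Induction and that inhibitor, if it was given, cannot be told apart.

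Notch receptors are cut when a Delta or Jagged ligand on a neighbouring cell pulls on them, first by ADAM proteases and then by the γ-secretase complex. The freed intracellular part enters the nucleus, joins the DNA-binding protein RBPJ and a Mastermind coactivator, and switches on HES and HEY genes, whose products repress transcription. HES proteins restrain neural and neuroendocrine differentiation, whereas in stratified squamous epithelium Notch signalling accompanies the exit of basal cells into differentiation.

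The promoters of 3 members are printed because they belong to the members whose changes carry most of the results below: HES2 and HES1, which encode repressors of the HES family, and JAG1, which encodes a ligand. Each sequence is the 250 bases before the start of the gene in RefSeq (GRCh38.p14), written 5′ to 3′ on the gene's own strand. HES2 lies at chr1:6419920-6420169 on the minus strand, HES1 at chr3:194135898-194136147 on the plus strand and JAG1 at chr20:10674000-10674249 on the minus strand. Capitals mark matches on either strand to TGGGAA, the core that RBPJ binds, or to CACNAG, the N box that HES proteins bind.
HES2: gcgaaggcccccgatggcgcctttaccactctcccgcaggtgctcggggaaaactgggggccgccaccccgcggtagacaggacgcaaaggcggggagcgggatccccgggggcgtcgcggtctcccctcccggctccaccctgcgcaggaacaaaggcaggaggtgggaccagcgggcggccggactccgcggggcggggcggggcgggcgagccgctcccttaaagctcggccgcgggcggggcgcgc
HES1: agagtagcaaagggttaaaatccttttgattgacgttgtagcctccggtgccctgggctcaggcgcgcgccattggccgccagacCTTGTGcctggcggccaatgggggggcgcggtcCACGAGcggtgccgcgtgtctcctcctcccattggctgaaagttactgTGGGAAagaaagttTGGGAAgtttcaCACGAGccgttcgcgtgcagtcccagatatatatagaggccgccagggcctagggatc
JAG1: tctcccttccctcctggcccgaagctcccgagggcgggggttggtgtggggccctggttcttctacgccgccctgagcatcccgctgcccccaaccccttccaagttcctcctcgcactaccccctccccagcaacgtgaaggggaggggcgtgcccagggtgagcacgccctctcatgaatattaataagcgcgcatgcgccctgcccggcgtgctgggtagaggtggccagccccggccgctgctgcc
HES1 held 2 RBPJ cores, whose first bases lie at -84 and -70 from the start, and 3 N boxes at -165, -132 and -58. HES2 and JAG1 held neither motif, which says only that these letters are not in this window. CATGNNNNNNCATG, a pair of the cores that the p53 family binds, was found in 0 of the 31 members with a promoter in the table. The 31 members have 38 promoters in it, of which 8 (21.1%) held the RBPJ core and 10 (26.3%) the N box. Among all 35116 promoters of the same length, 20.8% held TGGGAA, 32.0% held CACNAG and 0.296% held the paired p53-family core. The motifs do not overlap in the 3 promoters shown.

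Total counts ran from 6375963 to 22019974 in 23 libraries. The library of ΔNp63 day 1 replicate 3 stood apart, with 1530847 counts and -193.9 on the first principal component, where the others lay between -17 and 24.95. It held 69.2 CPM (counts scaled to a common, TMM-adjusted library size) of TP63, against 326 to 1033 CPM in the other 17 induced libraries and 2.90 to 4.94 CPM in the 6 day 0 libraries. A list of 10 erythroid genes summed to 4115.5 CPM in it, against 1.80 to 80.8 CPM elsewhere, and the pan-leukocyte gene PTPRC stood at 89.1 CPM, against 0.790 to 5.28. NOTCH3 had 0 counts there, against 5.61 to 9.14 CPM elsewhere, DLL1 27.3 CPM, against 71.9 to 137, and MAML2 17.3 CPM, from 26 counts, against 1.17 to 3.98. Because this library enters the estimate of spread in every comparison, each count is also given from a fit without it and with the replicate number as a block, called the blocked 23-library fit below. Among the neuroendocrine markers of the labelled tumour type, SYP stood at 4.27 ± 0.124 and 2.84 ± 0.373 CPM at day 0 of the TAp63 and the ΔNp63 line (SD, n = 3). INSM1 and CHGA were near 0, at 0.421 ± 0.0898 and 0.523 ± 0.132 CPM in day 0 TAp63 cells and 0.375 ± 0.202 and 0.308 ± 0.0764 CPM in day 0 ΔNp63 cells. The tuft cell factor gene POU2F3 stood at 218 ± 26.1 and 196 ± 13.7 CPM in the same groups. The neuroendocrine list holds 5 genes and not all are reported here. SYP, INSM1 and CHGA therefore do not give the level of that list as a whole.

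Levels can be set side by side between genes only per length, as CPM per kb of counted span, introns included. Before induction the HES family led this scale: HES6, which in mouse opposes HES1, stood at 35.0 and 38.3 CPM per kb in the TAp63 and ΔNp63 lines, HES4 at 22.9 and 23.7 and HES1 at 14.6 and 14.5. Next came NRARP, a feedback inhibitor of the Notch complex, at 12.01 and 12.8 CPM per kb, the fringe glycosyltransferase gene RFNG at 10.1 and 9.82 and the ligand gene JAG2 at 9.72 and 10.6. Among receptors the order was NOTCH2 at 2.75 and 2.73 CPM per kb, NOTCH1 at 1.92 and 2.08, and NOTCH3 at 0.140 and 0.159. JAG1 stood at 1.33 and 1.29 CPM per kb, HEY1 at 0.733 and 0.768, HES2 at 0.648 and 0.691, and the endothelial ligand gene DLL4 at 0.0400 and 0.0878. These spans count introns, so genes with long introns stand low on this scale. The counted length of DLL1, NOTCH4, MAML1 and DTX2 takes in further full or partial copies on alternate or patch sequences, so no per-length value is given for them. With all 24 libraries edgeR called 0 of 34 members different between the TAp63 and the ΔNp63 line at day 0, while 1 had an unadjusted p under 0.05, against 0.946% of all genes, and DESeq2 called 0. Over all genes 0.0128% were called. With the blocked 23-library fit 0 members were called too, against 0.171% of all genes, and 2 had an unadjusted p under 0.05, against 5.91%. The member with an unadjusted p under 0.05 was DLL4, at 0.389 ± 0.0705 CPM in TAp63 cells and 0.855 ± 0.342 CPM in ΔNp63 cells (SD, n = 3).

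HES2 was the 1 Notch pathway gene called against day 0 in the fit of all 24 libraries, and it rose in the ΔNp63 line, with a log2 change above 1 by day 3. HES2 encodes a basic helix-loop-helix repressor (hg38 chr1:6415234-6419919, minus strand) and no annotated gene overlaps it. In the TAp63 line its 3 libraries held 3.70, 2.13 and 3.29 CPM at day 0, 2.88, 2.99 and 3.54 at day 1, 3.72, 4.22 and 3.98 at day 3, and 3.14, 4.94 and 4.17 at day 6. In the ΔNp63 line they held 3.21, 2.90 and 3.61 CPM at day 0, 3.76, 3.85 and 3.33 at day 1, 6.72, 7.42 and 8.404 at day 3, and 6.39, 8.41 and 9.01 at day 6. All 6 ΔNp63 libraries of days 3 and 6 lay above every other library of either line. The day 1 values overlapped those of day 0 in both lines. In the ΔNp63 line only replicate 3 overlapped, the library that stands apart, where HES2 had 5 counts. Replicates 1 and 2 of ΔNp63 day 1 lay above all of day 0. HES2 was not called at day 1 in either fit. The log2 change in the ΔNp63 line was 1.21 ± 0.21 (SE) at day 3 (edgeR adjusted p = 0.00224) and 1.29 ± 0.22 at day 6 (edgeR adjusted p = 0.00129). HES2 kept this call in all 13 alternative settings at both days, with a highest adjusted p of 0.0296 and 0.0178 by edgeR or DESeq2. The rise at day 3 was 1.05, 1.35 and 1.21 on the log2 scale within replicates 1, 2 and 3, and at day 6 it was 0.98, 1.53 and 1.32. Markers of basal squamous cells moved the same way: a list of 4 summed to 166 to 196 CPM in ΔNp63 cells at day 6, against 30.6 to 39.9 CPM at day 0, with KRT14 at 0 in all 3 day 6 libraries. In TAp63 cells the same list summed to 44.0 to 45.8 CPM at day 6, against 31.0 to 45.0 CPM at day 0. Other lists shifted without overlap in ΔNp63 cells too, and not all of them are reported here. Those that follow therefore do not give the direction of the rest. The 4 tuft cell genes summed to 194 to 210 CPM at day 6, against 283 to 304 at day 0, and the 4 immune genes to 489 to 661 CPM at day 6, against 915 to 1095 at day 0. PTPRC, 1 of these 4 immune genes, stood at only 0.790 to 5.28 CPM outside ΔNp63 day 1 replicate 3. Other genes of the list therefore made up nearly all of that sum. The part of these markers in the changes of the members was not tested. In the TAp63 line the log2 change of HES2 at day 6 was 0.46 ± 0.22 and did not pass the test. The TAp63 minus ΔNp63 difference of the responses was -0.79 ± 0.31 at day 3 and -0.83 ± 0.31 at day 6, and neither passed the adjusted test, with unadjusted edgeR p of 0.0178 and 0.0139. In bulk RNA, a change in the number of cells that express a gene and a change in RNA per cell cannot be told apart.

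**Figure D1:**
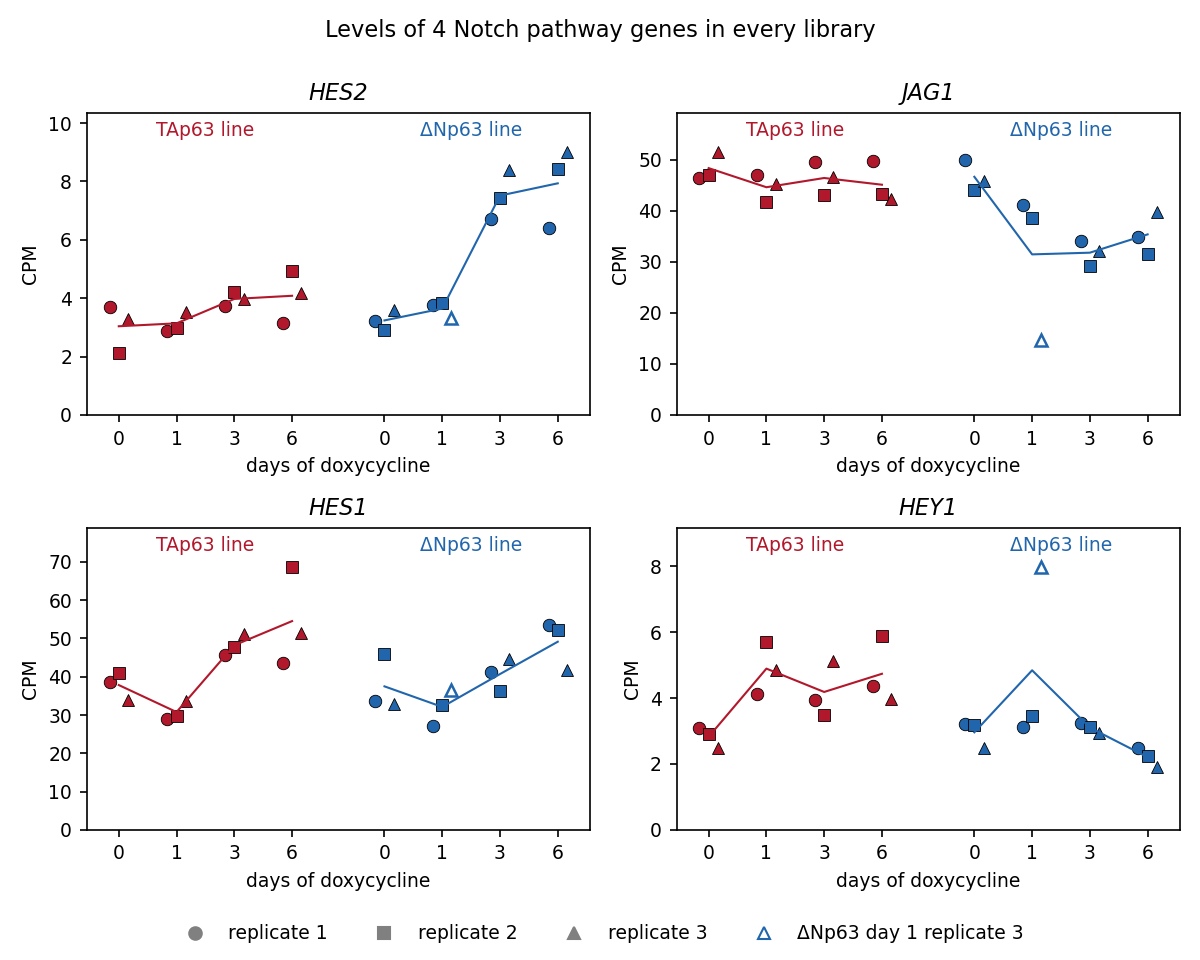
CPM (y axis, linear) of HES2, JAG1, HES1 and HEY1 in each library at days 0, 1, 3 and 6 of doxycycline (x axis), TAp63 line in red and ΔNp63 line in blue. Symbols are replicates, lines join group means of 3 libraries, and the open triangle is ΔNp63 day 1 replicate 3, which is included in its mean; HES2 reaches 6.39 to 9.01 CPM in ΔNp63 cells at day 6, and JAG1 falls to 29.2 to 34.1 CPM at day 3.

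HES1, the best known Notch target (hg38 chr3:194136148-194138732, plus strand), was lowest at day 1 and highest at day 6 in both lines. In TAp63 cells the libraries held 38.7, 41.0 and 33.8 CPM at day 0, 29.05, 29.7 and 33.6 at day 1, 45.7, 47.7 and 51.2 at day 3, and 43.6, 68.7 and 51.3 at day 6. In ΔNp63 cells they held 33.7, 45.8 and 32.9 CPM at day 0, 27.1, 32.7 and 36.6 at day 1, 41.1, 36.4 and 44.6 at day 3, and 53.5, 52.3 and 41.7 at day 6. The TAp63 libraries of days 3 and 6 all lay above those of days 0 and 1, whereas in the ΔNp63 line day 6 overlapped day 0. Against day 0, the day 6 log2 change was 0.53 ± 0.16 in TAp63 cells and 0.39 ± 0.16 in ΔNp63 cells, and with all libraries neither passed (edgeR adjusted p = 0.397 and 0.391). HES1 passed in the blocked 23-library fit, at 0.53 ± 0.13 in TAp63 cells (edgeR adjusted p = 0.0137) and 0.41 ± 0.13 in ΔNp63 cells (edgeR adjusted p = 0.0326). Day 6 was also set against day 1, a comparison chosen after these values were seen. With all libraries HES1 was higher at day 6 than at day 1 by 0.83 ± 0.17 in TAp63 cells (edgeR adjusted p = 0.0281) and by 0.65 ± 0.17 in ΔNp63 cells (edgeR adjusted p = 0.0473). Those calls are fragile, holding in 7 of 13 alternatives for TAp63 cells and in 5 of 12 for ΔNp63 cells. In TAp63 cells it was lost without replicate 1, 2 or 3 of day 1 or replicate 2 or 3 of day 6, with edgeR adjusted p of 0.0761 to 0.302, and with the groups compared alone (0.156). In ΔNp63 cells it was lost without replicate 1 of day 1 or replicate 1, 2 or 3 of day 6, with edgeR adjusted p of 0.0613 to 0.17. It was also lost there with DESeq2's size factors (edgeR adjusted p = 0.0508), with no filter on low counts (0.0532) and with the groups compared alone (0.834). In the blocked 23-library fit the values were 0.83 ± 0.13 (edgeR adjusted p = 0.000141) and 0.75 ± 0.15 (edgeR adjusted p = 0.00106). The ΔNp63 value there rests on day 1 libraries whose pairing by replicate number is uncertain.

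The day 6 against day 1 comparison called 1 of 34 members in the TAp63 line (HES1), against 0.3% of all genes, and 2 in the ΔNp63 line (HES2 and HES1), against 2.59%. HES2 was higher at day 6 than at day 1 of the ΔNp63 line by 1.08 ± 0.23 (edgeR adjusted p = 0.0129). Its call held in 9 of 12 alternatives and was lost without replicate 2 or 3 of day 6 (edgeR adjusted p = 0.0593 and 0.067) and with those 2 groups alone (0.832). The blocked 23-library fit called 2 members in the TAp63 line, against 4.13% of all genes, and 2 in the ΔNp63 line, against 8.51%. In the TAp63 line these were HES1 and LFNG, a fringe glycosyltransferase gene that modifies Notch (0.43 ± 0.11, edgeR adjusted p = 0.0232). LFNG held 36.7, 33.8 and 32.3 CPM at day 0 of the TAp63 line, 38.7, 32.8 and 26.6 at day 1, 37.5, 50.4 and 42.4 at day 3, and 39.0, 49.1 and 44.2 at day 6. Its ΔNp63 libraries other than day 1 replicate 3, at 11.97 CPM, lay between 28.6 and 39.4 CPM at all days.

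HEY1, another RBPJ-driven repressor gene, was higher after TAp63 induction, and passed at days 1 and 6 in the blocked 23-library fit. Its TAp63 libraries held 3.08, 2.90 and 2.49 CPM at day 0, 4.13, 5.71 and 4.85 at day 1, 3.93, 3.49 and 5.14 at day 3, and 4.36, 5.88 and 3.98 at day 6. Its ΔNp63 libraries held 3.21, 3.18 and 2.49 CPM at day 0, 3.11, 3.44 and 7.98 at day 1, 3.24, 3.12 and 2.95 at day 3, and 2.49, 2.23 and 1.90 at day 6. Every induced TAp63 library lay above the 3 of day 0, while the ΔNp63 libraries of day 6 lay at or below the lowest of day 0. The value of 7.98 CPM rests on 12 counts in the library that stands apart. With all libraries the TAp63 log2 changes were 0.81 ± 0.27 at day 1 and 0.76 ± 0.27 at day 6, and neither passed (edgeR adjusted p = 1 and 0.655). In the blocked 23-library fit HEY1 passed in TAp63 cells at day 1 (0.83 ± 0.19, edgeR adjusted p = 0.026) and at day 6 (0.79 ± 0.19, edgeR adjusted p = 0.0132). At day 3 the TAp63 change was 0.56 ± 0.27 with all libraries and 0.52 ± 0.20 in the blocked fit, and it passed in neither (edgeR adjusted p = 1 and 0.132). The ΔNp63 change at day 6 was -0.41 ± 0.28 and was not called in either fit. The TAp63 minus ΔNp63 difference of the day 6 responses was 1.17 ± 0.39 with all libraries (edgeR adjusted p = 0.868). In the blocked 23-library fit it was 1.19 ± 0.29 and passed (edgeR adjusted p = 0.0244).

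The other genes of this family were not called in any comparison by either fit. HEYL, a relative of HEY1, averaged 2.63 ± 0.494 CPM at day 0, 4.06 ± 0.411 at day 1, 3.46 ± 0.718 at day 3 and 3.76 ± 1.11 at day 6 of the TAp63 line (SD, n = 3). In the ΔNp63 line HEYL averaged 2.91 ± 0.601 CPM at day 0, 4.84 ± 1.71 at day 1, 3.46 ± 0.543 at day 3 and 3.35 ± 0.812 at day 6. Its day 1 mean was 3.94 CPM without the library that stands apart. HES4 group means lay between 24.2 and 27.5 CPM in all 8 groups. HES6 averaged 62.5 ± 7.27 CPM at day 6 and 62.0 ± 13.2 at day 0 in TAp63 cells, and 60.9 ± 4.74 and 67.8 ± 4.40 CPM in ΔNp63 cells at day 6 and day 0. HEY2 never exceeded 0.468 CPM in a library.

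Among the ligands, JAG1 stood lower in ΔNp63 cells after induction. JAG1 encodes the Jagged 1 ligand, described as a p63 target in other cells (hg38 chr20:10637684-10673999, minus strand), and a microRNA gene lies within it. In the TAp63 line its libraries held 46.5, 47.1 and 51.5 CPM at day 0, 47.0, 41.7 and 45.2 at day 1, 49.6, 43.2 and 46.6 at day 3, and 49.8, 43.3 and 42.3 at day 6. In the ΔNp63 line they held 50.05, 44.2 and 45.9 CPM at day 0, 41.2, 38.6 and 14.6 at day 1, 34.1, 29.2 and 32.2 at day 3, and 34.9, 31.5 and 39.8 at day 6. The 6 ΔNp63 libraries of days 3 and 6 lay below all ΔNp63 day 0 libraries and below all 12 TAp63 libraries. The ΔNp63 day 1 libraries also lay below all of day 0. Their log2 ratios within replicates 1, 2 and 3 were -0.28, -0.20 and -1.62, the last in the library that stands apart. JAG1 was not called at day 1 in either fit. At day 3 the log2 change was -0.55 ± 0.19 with all libraries and did not pass (edgeR adjusted p = 0.171). It passed in 5 of 13 alternatives: with the replicate block (edgeR adjusted p = 0.0427), without ΔNp63 day 1 replicate 3 (0.00199), with both (9.21e-06), with the libraries of those 2 groups alone (0.0344), and with DESeq2 (0.0406). Its size stayed between -0.61 and -0.50 when each library was left out. At day 6 the change was -0.40 ± 0.19 (edgeR adjusted p = 0.523), and it passed only without ΔNp63 day 1 replicate 3, alone (0.0229) or with the block (-0.41 ± 0.08, edgeR adjusted p = 0.000591). The TAp63 minus ΔNp63 difference was 0.49 ± 0.27 at day 3 with all libraries (edgeR adjusted p = 1). In the blocked 23-library fit it was 0.48 ± 0.11 and passed (edgeR adjusted p = 0.0275).

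DLL3, a ligand that inhibits Notch in the cell that makes it and marks neuroendocrine tumours, moved less. In ΔNp63 cells DLL3 held 24.6, 27.8 and 18.97 CPM at day 0, 19.6, 22.2 and 11.3 at day 1, 21.5, 20.2 and 17.4 at day 3, and 19.2, 21.8 and 14.9 at day 6. The day 6 and day 0 libraries overlapped, but within each replicate number day 6 was lower, with a log2 ratio of -0.35 in all 3 pairs. With all libraries the day 6 change was -0.34 ± 0.20 (edgeR adjusted p = 0.73), and in the blocked 23-library fit it passed at day 6 (-0.34 ± 0.10, edgeR adjusted p = 0.0181) and at day 3 (-0.26 ± 0.09, edgeR adjusted p = 0.0398). In TAp63 cells DLL3 averaged 19.3 ± 2.23 CPM at day 6 and 20.7 ± 2.59 at day 0 (SD, n = 3). The other ligands were not called in either fit. JAG2 averaged 282 ± 57.8 CPM at day 6 and 269.96 ± 47.5 at day 0 of the TAp63 line, and 273 ± 65.1 and 293 ± 75.7 CPM in the ΔNp63 line. DLL1, which overlaps FAM120B, averaged 108 ± 19.4 and 102 ± 17.1 CPM at days 6 and 0 of the TAp63 line, and 102 ± 20.1 and 113 ± 23.5 CPM of the ΔNp63 line. DLL4 stayed at or under 1.25 CPM in every library. All 5 ligands had negative fitted changes in the ΔNp63 line at days 3 and 6, from -0.57 to -0.10 at day 6 with a median of -0.34, and in the TAp63 line at day 6 they ran from -0.10 to 0.14 with a median of 0.06. The value of -0.57 is that of DLL4, which had only 7, 8 and 4 counts in the ΔNp63 day 6 libraries. Its day 6 log2 ratios within replicates 1, 2 and 3 were -0.26, -1.06 and 0.04.

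Among the receptors, no gene passed with all libraries and NOTCH1 passed in the blocked fit. NOTCH2, the most abundant receptor per length, averaged 407 ± 3.39 CPM at day 6 and 435 ± 15.9 at day 0 of TAp63 cells, and 496 ± 76.3 and 431 ± 10.5 CPM at days 6 and 0 of ΔNp63 cells (SD, n = 3). Its ΔNp63 day 6 mean rests in part on replicate 3, at 584 CPM, where the others held 453 and 451. NOTCH2 has near-identical human copies, the NOTCH2NL genes, so its counts are uncertain. NOTCH1 held 135, 97.8 and 89.5 CPM at day 0 of ΔNp63 cells, 124, 95.6 and 55.9 at day 1, 115, 82.6 and 77.8 at day 3, and 120.2, 81.6 and 99.5 at day 6. The groups overlapped, and within replicate numbers the day 3 against day 0 log2 ratios were -0.22, -0.24 and -0.20. NOTCH1 passed at day 3 in the blocked 23-library fit (-0.22 ± 0.07, edgeR adjusted p = 0.0286) and in no other comparison. In TAp63 cells NOTCH1 averaged 90.0 ± 19.6 CPM at day 6 and 99.2 ± 22.97 at day 0. NOTCH3 averaged 7.31 ± 1.58 and 5.87 ± 0.390 CPM at days 6 and 0 of TAp63 cells and 7.34 ± 1.12 and 6.67 ± 0.815 CPM of ΔNp63 cells, uncalled in either fit. NOTCH4 stayed at or under 0.643 CPM outside the library that stands apart.

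In the nuclear complex and its feedback, edgeR calls came from the blocked 23-library fit alone and in the ΔNp63 line at day 3. In that line MAML3, a Mastermind coactivator gene, held 79.0, 77.7 and 125.9 CPM at day 0, 86.3, 90.3 and 48.6 at day 1, 110.7, 115.3 and 138 at day 3, and 93.5, 81.8 and 96.85 at day 6. It was higher at day 3 than at day 0 in each replicate, by 0.49, 0.57 and 0.13 on the log2 scale, and passed at 0.40 ± 0.12 (edgeR adjusted p = 0.0174). MAML3 overlaps MGST2 and LOC101927516. Its relative MAML2 held 2.14, 1.19 and 1.64 CPM at day 0 of ΔNp63 cells, 2.60, 1.95 and 17.3 at day 1, 3.12, 1.84 and 3.45 at day 3, and 2.57, 2.37 and 1.90 at day 6, and passed at 0.77 ± 0.24 (edgeR adjusted p = 0.022). NRARP held 36.2, 32.6 and 32.2 CPM at day 0 of ΔNp63 cells, 27.1, 29.6 and 35.9 at day 1, 26.8, 26.7 and 25.8 at day 3, and 27.2, 30.6 and 32.1 at day 6. Its day 3 libraries lay below those of day 0, and it passed at -0.35 ± 0.10 (edgeR adjusted p = 0.0125). SPEN, which encodes a corepressor that RBPJ recruits, held 259.5, 225.9 and 235 CPM at day 0 of ΔNp63 cells, 252, 202 and 319 at day 1, 226, 186 and 195 at day 3, and 237, 195 and 230.5 at day 6, with a day 3 change of -0.25 ± 0.07 (edgeR adjusted p = 0.00963). SPEN overlaps FLJ37453. With all libraries none of these 4 passed at day 3, the lowest edgeR adjusted p being 0.241, of NRARP. RBPJ and MAML1 were not called in either fit.

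Of the sugar-adding enzymes of Notch, MFNG, a fringe gene, held 15.97, 17.5 and 18.7 CPM at day 0 of ΔNp63 cells, 21.6, 19.02 and 9.31 at day 1, 24.9, 21.5 and 22.8 at day 3, and 20.5, 16.4 and 19.1 at day 6. Day 3 lay above day 0 without overlap, and it passed in the blocked 23-library fit (0.40 ± 0.13, edgeR adjusted p = 0.023). POFUT1, which adds the O-fucose that fringe enzymes extend, held 78.7, 85.6 and 76.3 CPM at day 0 of ΔNp63 cells, 72.1, 80.85 and 103 at day 1, 69.1, 65.4 and 72.9 at day 3, and 68.9, 80.03 and 82.8 at day 6. It was lower at day 3 without overlap and passed in the same fit (-0.21 ± 0.07, edgeR adjusted p = 0.0379). Among the proteases ADAM17, a sheddase that can make the first cut, held 59.4, 51.7 and 62.55 CPM at day 0 of ΔNp63 cells, 54.4, 49.5 and 70.5 at day 1, 46.5, 49.1 and 55.7 at day 3, and 43.95, 45.7 and 55.8 at day 6. It overlaps IAH1, and it passed at day 6 in that fit (-0.26 ± 0.09, edgeR adjusted p = 0.0414). With all libraries MFNG, POFUT1 and ADAM17 did not pass (edgeR adjusted p = 0.395, 0.509 and 0.635 at those days). RFNG, ADAM10, the γ-secretase genes PSEN2 and NCSTN, the Deltex genes DTX1, DTX2, DTX3 and DTX4, NUMB and NUMBL were not called in either fit. Changes of the 6 Deltex and Numb genes at day 6 ran from -0.08 to 0.21 in TAp63 cells and from -0.16 to 0.17 in ΔNp63 cells.

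**Figure D2:**
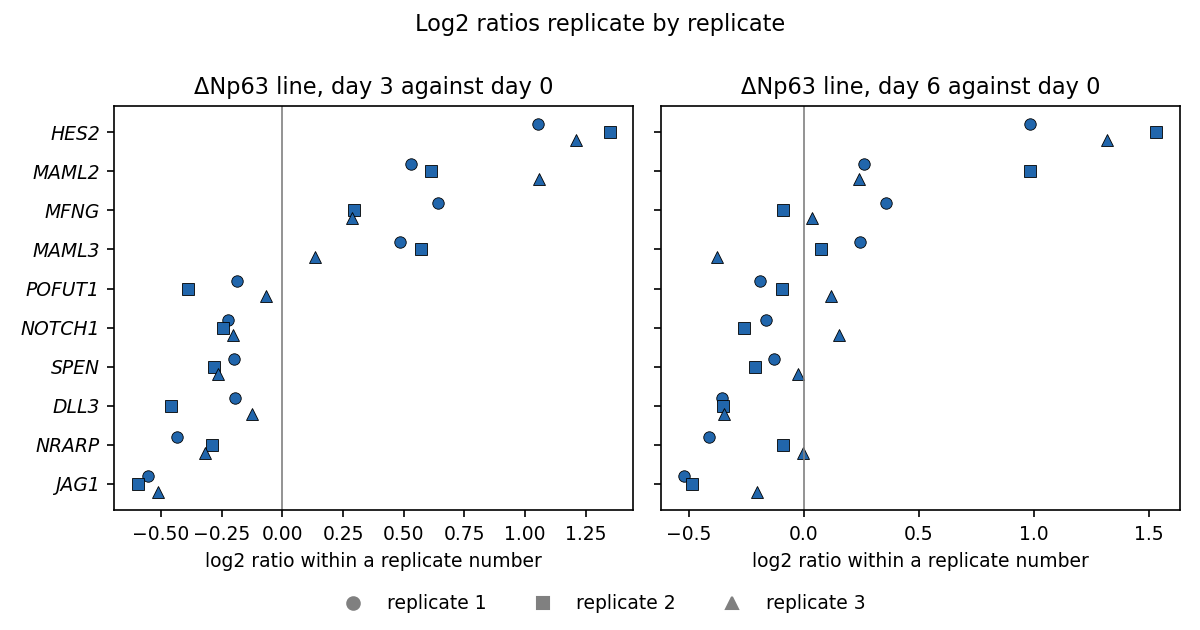
Log2 ratio of CPM (x axis, pseudocount 0.5) between libraries of the same replicate number in the ΔNp63 line, day 3 against day 0 on the left and day 6 against day 0 on the right, for the 10 members called at day 3 in the blocked 23-library fit. Symbols are the replicates; at day 3 the 3 ratios of each gene lie on one side of 0, since the fit chose genes on these values, and at day 6 those of HES2 run from 0.98 to 1.53 and those of JAG1 from -0.52 to -0.20.

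Counted over the list, few members were called. In the TAp63 line edgeR with all libraries called 0 of 34 at day 1, 0 at day 3 and 0 at day 6, where 0.121%, 0.435% and 0.441% of all genes were called. At an unadjusted p under 0.05 there were 3, 1 and 2 members, against 1.98%, 4.68% and 4.09% of all genes, and DESeq2 called 0 members at each day. The blocked 23-library fit called 1 member at day 1 (HEY1 up), 0 at day 3 and 2 at day 6 (HEY1 and HES1 up), against 0.887%, 4.57% and 3.6% of all genes. That fit gave 7, 8 and 10 members an unadjusted edgeR p under 0.05. These were 20.6%, 23.5% and 29.4% of the members, against 9.55%, 18.3% and 15.5% of all genes. In the ΔNp63 line edgeR with all libraries called 0 members at day 1, against 0.0959% of all genes, with 3 members at an unadjusted p under 0.05, against 12.2% of all genes. DESeq2 called 1 there, MAML2 (1.91, DESeq2 adjusted p = 0.0408), whose day 1 mean rests on the library that stands apart. HES2 was the 1 call at day 3, against 2.2% of all genes, and again at day 6, against 2.03%. In the blocked 23-library fit 0 were called at day 1, against 0.849% of all genes. At day 3 it called 10 members, 4 up and 6 down, or 29.4% of the 34, against 23.5% of all genes, and at day 6 it called 5 members, 2 up and 3 down, or 14.7%, against 14.1%. Those shares lie near the background. In the ΔNp63 line the blocked fit gave 8, 14 and 8 members an unadjusted edgeR p under 0.05 at days 1, 3 and 6. These were 23.5%, 41.2% and 23.5% of the members, against 12.3%, 35.5% and 25.9% of all genes. Whether the unadjusted shares of either line differ from those of all genes was not tested. The median log2 change of the members at day 6 was 0.02 in the TAp63 line, against -0.01 over all genes, and -0.04 in the ΔNp63 line, against -0.01 over all genes. At day 6, 21 members had positive and 13 negative changes in the TAp63 line, and 16 and 18 in the ΔNp63 line. The 6 tested HES and HEY genes had a median change of 0.48 in the TAp63 line at day 6, from 0.01 to 0.76, and of 0.11 in the ΔNp63 line, from -0.41 to 1.29.

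**Figure D3:**
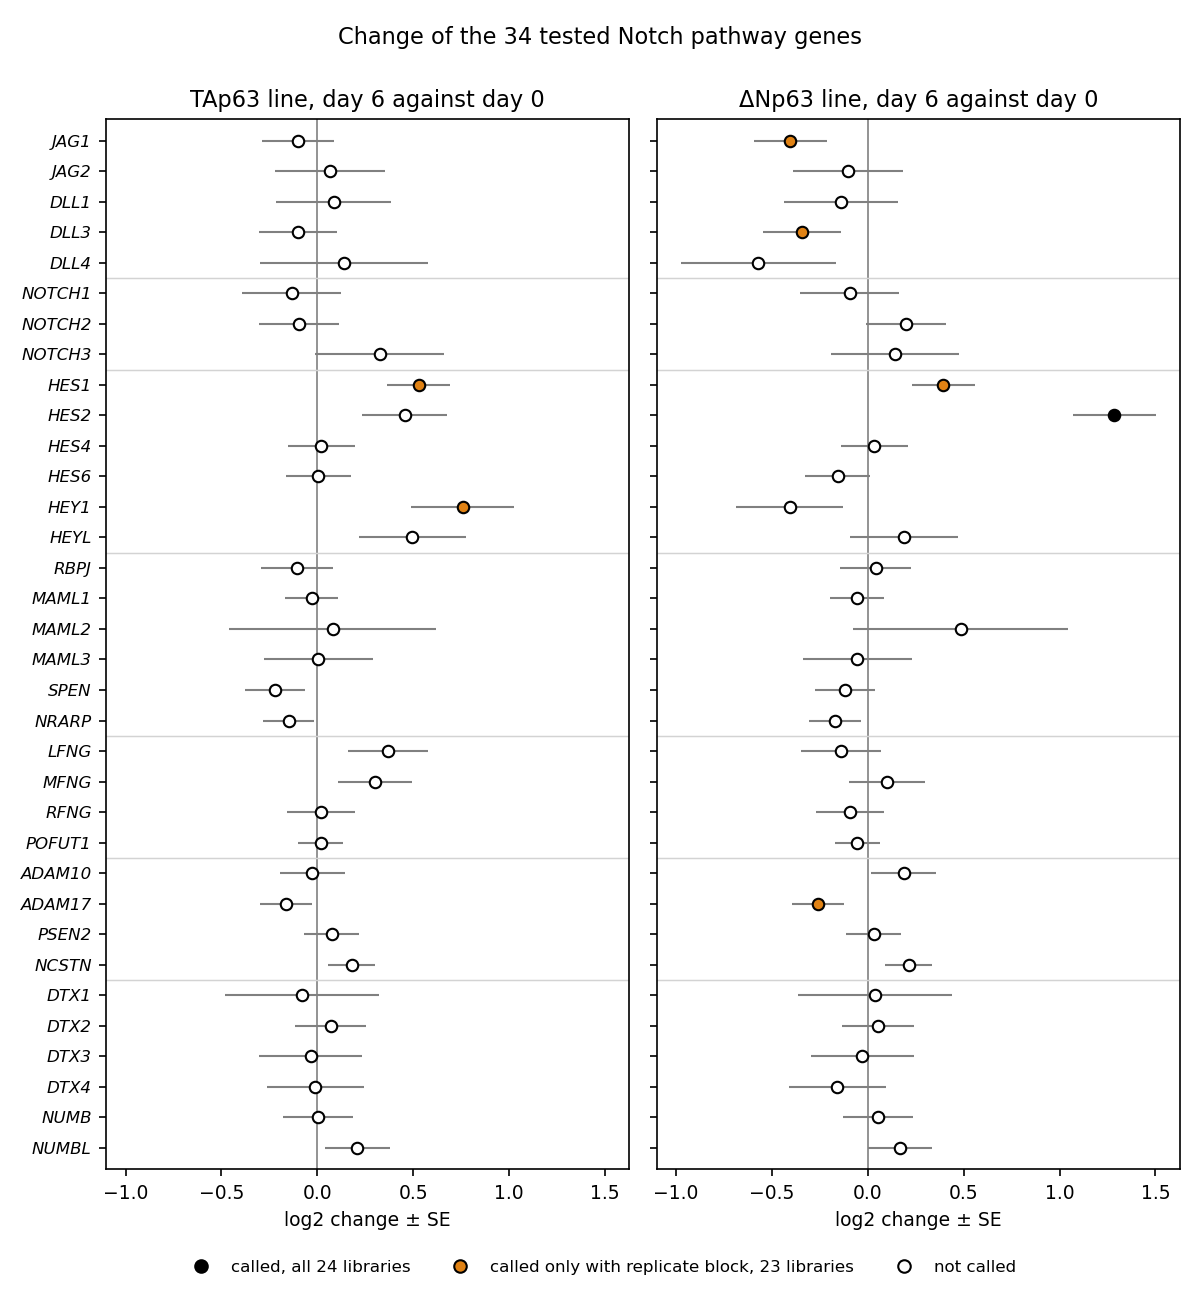
Log2 change at day 6 against day 0 (x axis, bars ± SE) of the 34 tested members in the TAp63 line on the left and the ΔNp63 line on the right, from the fit of all 24 libraries, in blocks by role. Black marks a gene called in that fit, orange 1 called only in the blocked 23-library fit; HES2 in the ΔNp63 line, at 1.29, is the black point.

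The response of the lines was compared as TAp63 minus ΔNp63. With all libraries edgeR called 0 of 34 members at day 3 and 0 at day 6, against 0.0448% and 0.0831% of all genes. At an unadjusted p under 0.05 there were 1 and 2 members, against 2.22% and 2.70% of all genes, and DESeq2 called 0 at both days. The blocked 23-library fit called JAG1 at day 3, against 0.944% of all genes, and HEY1 at day 6, against 1.87%. HES2 and HES1 were not called in that comparison by either fit, so a response of HES2 particular to ΔNp63 was not shown.

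Other genes of the pathway, 35 of them listed and 32 tested, gave 0 edgeR calls with all libraries in each comparison. At an unadjusted p under 0.05 there were 0 at TAp63 day 1, 1 at day 3 and 0 at day 6, and 4 at ΔNp63 day 1, 3 at day 3 and 2 at day 6. Over all genes the shares were 1.98%, 4.68% and 4.09% in the TAp63 line and 12.2%, 12.3% and 9.33% in the ΔNp63 line. DESeq2 called 1 of these genes, at ΔNp63 day 1. In the blocked 23-library fit TLE1 alone was called in the TAp63 line against day 0, at day 3 (0.27 ± 0.07, edgeR adjusted p = 0.0171). In the ΔNp63 line 5 rose and 2 fell at day 3, or 21.9% of the 32, against 23.5% of all genes. At day 6 of that line 4 rose and 1 fell, or 15.6%, against 14.1% of all genes. Both shares lie near the background, so the values that follow describe single genes and not the list. The 6 with the lowest p in the fit of all libraries were these. NEURL1, which encodes a ubiquitin ligase that acts on Notch ligands, rose at day 3 by 0.55 ± 0.14 in the blocked fit (edgeR adjusted p = 0.00425), and MIB2, another such ligase gene, by 0.40 ± 0.11 (edgeR adjusted p = 0.00908). APH1B, a γ-secretase subunit gene, rose at day 6 by 0.57 ± 0.11 (edgeR adjusted p = 0.000683) and HDAC1, a histone deacetylase gene, by 0.33 ± 0.06 (edgeR adjusted p = 0.000439). The Groucho corepressor gene TLE3 fell at day 3 by 0.27 ± 0.07 (edgeR adjusted p = 0.00891). Its relative TLE1 rose at day 6 by 0.23 ± 0.07 (edgeR adjusted p = 0.0232).

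A list of 8 proneural and endocrine transcription factor genes was set beside the members, 5 of 8 being tested. With all libraries edgeR called 1 of the 5 at ΔNp63 day 3 and 1 at day 6, against 2.2% and 2.03% of all genes, and at both days this was NEUROG1. The blocked 23-library fit called 1 at ΔNp63 day 1, 1 at day 3 and 3 at day 6, against 0.849%, 23.5% and 14.1% of all genes. NEUROG1, a proneural factor gene, rose in ΔNp63 cells together with HES2. NEUROG1 held 2.80, 2.56 and 2.36 CPM at day 0 of the ΔNp63 line, 1.66, 2.67 and 1.33 at day 1, 5.62, 5.19 and 5.46 at day 3, and 7.01, 4.46 and 6.79 at day 6. All libraries of days 3 and 6 lay above those of days 0 and 1. The NEUROG1 change was 1.08 ± 0.28 at day 3 (edgeR adjusted p = 0.0429) and 1.24 ± 0.28 at day 6 (edgeR adjusted p = 0.0187), and in the TAp63 line it was 0.55 ± 0.29 at day 6, uncalled in either fit. ASCL2, a relative, passed in the blocked fit alone at ΔNp63 day 6 (0.28 ± 0.09, edgeR adjusted p = 0.0484).

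Part of the spread among libraries went with the replicate number. JAG2 held 347, 247 and 230.4 CPM on average in replicates 1, 2 and 3 over 23 libraries, and 87.0% of its variance went with the number against 6.93% with the group. JAG2, DLL1 and NOTCH1 were highest in replicate 1 in 8 of 8 groups. MAML3 was highest in replicate 3 in 7 of 8 groups and RBPJ in 6. For 15 of 34 members more variance went with the number than with the group, with median shares of 25.6% and 31.1%. The shares are not scaled for degrees of freedom, and 8 groups take more by chance than 3 replicate numbers. They were taken for the members alone, so they do not set the members apart from other genes. HES2, HEY1 and JAG1 were the reverse, with 88.4%, 82.5% and 84.4% of the variance going with the group and 2.71%, 2.44% and 8.37% with the number. These genes had been called for group differences in the same libraries, so their large group shares are no separate result. Other measures moved with the number. The 10 erythroid genes summed to 38.2 to 80.8 CPM in the 8 libraries of replicate 1, against 1.80 to 17.6 CPM in replicates 2 and 3 without the library that stands apart. On the first principal component replicate 1 lay between -17 and -2.60 and those others between 8.08 and 24.9. The part of these in the levels of JAG2, DLL1 and NOTCH1 was not tested.

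**Figure D4:**
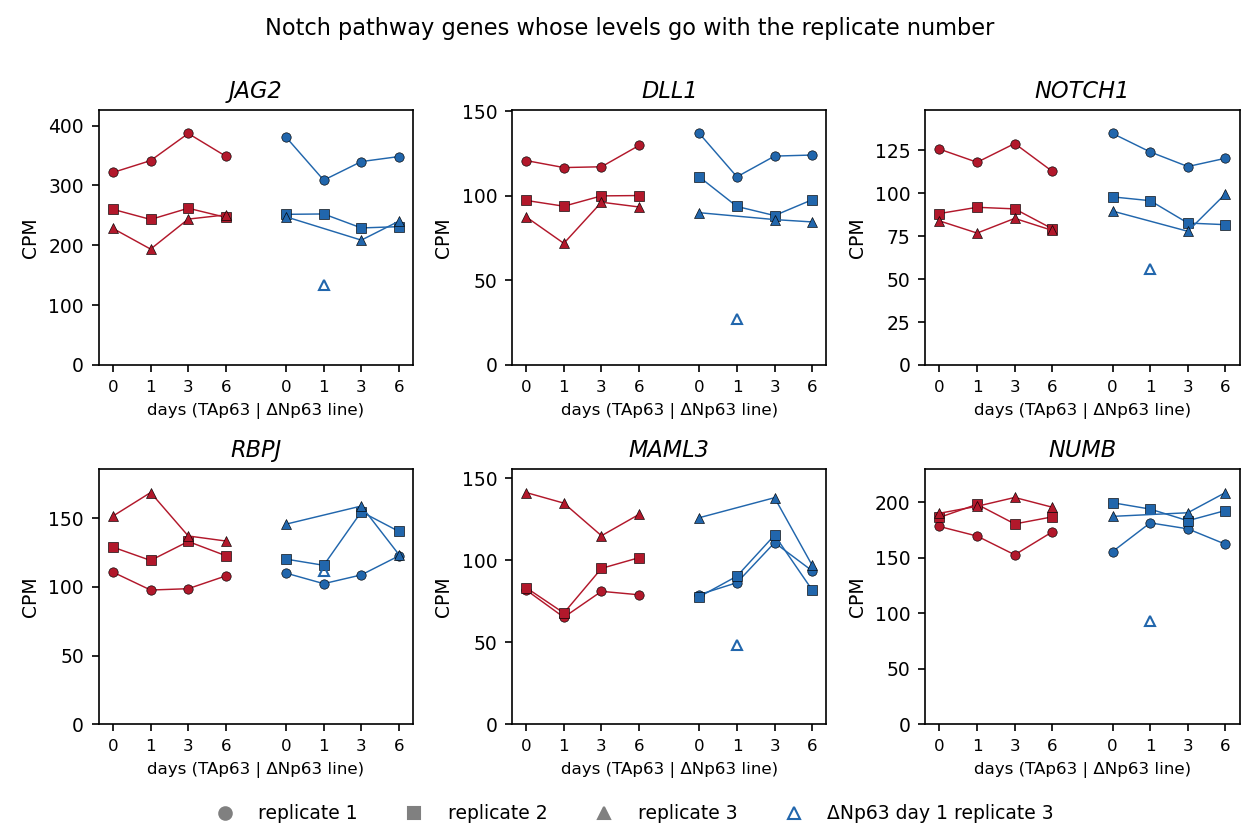
CPM (y axis, linear) of 6 members by day of doxycycline (x axis), TAp63 line in red left of the ΔNp63 line in blue, with a symbol and a line for each replicate number. The open triangle is ΔNp63 day 1 replicate 3, left out of its line; JAG2, DLL1 and NOTCH1 are highest in replicate 1 in every group, and MAML3 in replicate 3 in 7 of 8.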

How the data were processed

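Per the labels' protocols, TRIzol RNA went into NEBNext Ultra libraries. HISAT2 2.1.0, hg38, featureCounts 1.6.1 and DESeq2, the last without a version, are named in the submitters' processing notes. The deposited table holds raw counts per gene, which per the file headers came from featureCounts 2.0.0 on hg38 refGene, over whole transcripts with introns and without strand. Unspliced RNA is therefore included, and antisense or overlapping genes are not told apart: 15 of the 36 members overlap another gene, 7 of them only microRNA genes.

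From these counts, edgeR 4.0.16 in R 4.3.3 (filterByExpr, TMM, glmQLFit and glmQLFTest, limma 3.58.1) was run on all 24 libraries in one model with 8 group means and 16 residual degrees of freedom. A call means a Benjamini-Hochberg adjusted p under 0.05 over the 15642 genes tested. The blocked 23-library fit tested 15783 genes with 13 residual degrees of freedom. Levels are CPM on TMM library sizes, and SE is the absolute log2 change over the square root of F. The number of libraries and their depth limit the precision, and replicates differed beyond sampling noise (lowest chi-square per degree of freedom 5.05). Alternatives were DESeq2 1.42.0, its size factors, no filter, a replicate block, leaving out ΔNp63 day 1 replicate 3 or each library, and only the groups compared. The code was tested on simulated data.

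Libraries with the same replicate number deviated together, with correlations of 0.267 to 0.819 outside the ΔNp63 day 1 group. For that group they were 0.288 and 0.225 in replicates 1 and 2 against day 0 and 0.027 in replicate 3, the library that stands apart, and 0.332, 0.0285 and -0.0383 against day 6. Deviations were taken from a group mean that includes the library that stands apart. The values for that group therefore cannot decide whether its libraries are paired. The numbers were taken to pair the libraries outside the ΔNp63 day 1 group, and the pairing of that group is uncertain. The blocked fit nevertheless used the replicate number as a block in every comparison. Its results for comparisons with ΔNp63 day 1 therefore rest on that uncertain pairing. Members and gene lists were chosen with earlier results of these data known. Comparisons of day 6 with day 1 were chosen after the values were seen. Members called in either edgeR fit are given in full, uncalled ligands, receptors and HES and HEY genes by group values, and other members by range. Of other pathway genes called in either fit, 6 with the lowest p in the fit of all libraries are named. A result that needs an item withheld from this text is not reported here.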

Additional observations from a re-analysis of the deposited data

Results flagged for a closer look

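For 2 members the response differed between the lines in a test of the difference itself. JAG1 differed at day 3 by 0.48 on the log2 scale, TAp63 minus ΔNp63, and HEY1 at day 6 by 1.19. Both were called in 1 of 19 alternatives each, the blocked 23-library fit, which leaves out ΔNp63 day 1 replicate 3. With all libraries the differences were 0.49 ± 0.27 and 1.17 ± 0.39 (edgeR adjusted p = 1 and 0.868). The value itself ran from 0.44 to 0.54 for JAG1 and from 0.98 to 1.28 for HEY1 when each library was left out.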

How the results depend on the processing

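Among the recomputed counts of called members, 125 stayed within 1.5 times the reported count and 28 moved, and no change of a named member turned its direction. Of the recomputed changes of called members, 282 kept their side of the threshold, 24 gained a call and 16 lost one. The blocked 23-library fit (replicate block, ΔNp63 day 1 replicate 3 left out) called 1 member at TAp63 day 1, 2 at TAp63 day 6, 10 at ΔNp63 day 3, 5 at ΔNp63 day 6, 1 for the difference at day 3, 1 for the difference at day 6 and 2 for TAp63 day 6 against day 1. At ΔNp63 day 3 the count was 2 with the replicate block alone, 2 with DESeq2 and 2 with the groups compared alone. DESeq2 called 1 at ΔNp63 day 1. For day 6 against day 1, the groups compared alone gave 0 in either line, and in the ΔNp63 line DESeq2's size factors gave 1 and no filter 1. With 1 library left out, counts ran from 0 to 1 at ΔNp63 day 1, from 1 to 2 at ΔNp63 day 3 and day 6, from 0 to 1 at TAp63 day 6 against day 1 and from 0 to 4 at ΔNp63 day 6 against day 1. The causes were not tested. The replicate block alone changed no other count of called members beyond 1.5 times. Only 3 libraries a group and, for HES2, HEY1, HEYL and MAML2, few counts per library limit the precision.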

Other observations

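In the library of ΔNp63 day 1 replicate 3 several members had values unlike those of any other library. NOTCH2 stood at 157 CPM, against 375 to 584 CPM in the other 23 libraries, and JAG1 at 14.6 CPM, against 29.2 to 51.5. The imprinted gene DLK1, which encodes a non-canonical Notch ligand, stood at 167 CPM, against 0 to 6.16 CPM elsewhere. HES1, at 36.6 CPM, and HES2, at 3.33 CPM, lay within the range of the other libraries.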
